A study of Mus musculus with 16 samples.

Results

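The genes described here are 32 regulators and transcriptional targets of p53, the transcription factor encoded by Trp53 that cells activate on DNA damage and other stress. They were chosen by name. Each gene was represented by the probe set with the highest mean over the 16 arrays. Of the 32 genes, 30 had a probe set with a gene name of their own, 52 probe sets in all, out of 17097 genes and 45037 probe sets on the array. No probe set was named for Trp53 itself or for Bax, a pore-forming protein of the mitochondrial death pathway, so these 2 genes were not analysed here.

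The samples came from mice in which NM1 (nuclear myosin 1, made from the gene Myo1c) had been knocked out, and from wild-type mice. The 6 groups were KO fibroblasts (mice 1584 and 1550), WT fibroblasts (1571 and 1623), KO lungs and KO heart (1602, 1603 and 1586) and WT lungs and WT heart (1592, 1624 and 1593). Values below follow that order of mice. Fibroblasts were derived from skin, from other mice than the organs. The labels name no strain, age, deleted allele, p53-activating treatment or way of growing the fibroblasts. Each array measured Trizol-extracted total RNA on an Affymetrix mouse expression array, and values are log2 signals, on which differences are ratios. The question asked of these genes was how their RNA levels differed between the genotypes and between the 3 sources.

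p53 is held low in unstressed cells by the ubiquitin ligase Mdm2 and its relative Mdm4. When it is stabilised, it induces Mdm2 in a feedback loop together with genes that halt the cell cycle, such as Cdkn1a, genes that promote apoptosis, such as Pmaip1 and Bbc3, and genes for DNA repair and metabolism. Many of these targets also respond to other transcription factors, so their level is not a reading of p53 activity alone.

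Myo1c, the gene of NM1, was measured first as a check of the labels. Its signal was 9.85, 9.45 and 9.20 in KO lungs, against 10.30, 10.72 and 10.95 in WT lungs. It was 8.29, 8.53 and 8.45 in KO heart and 9.31, 9.29 and 9.18 in WT heart, and 8.73 and 8.65 in KO fibroblasts and 9.82 and 10.20 in WT fibroblasts. KO was below WT in every sample of each source, and over the 3 tissues Myo1c was lower in KO, at -1.10 (SE 0.12, adjusted p = 0.00278), with KO signals of 8.29 or more. Markers of each source were read as well. Col1a1, a fibrillar collagen, lay between 10.88 and 11.61 in fibroblasts, Sftpc, a surfactant protein, between 13.92 and 14.13 in lungs, and Myl2, a myosin light chain of the ventricle, between 13.83 and 13.98 in heart. The mean of 8 fibroblast markers was 10.06 to 10.69 in fibroblasts, 7.11 to 7.83 in lungs and 6.60 to 8.01 in heart. Not every marker took that order. Lum was lower in fibroblasts, at 6.78 to 9.03, than in heart, at 9.36 to 10.78. Dcn overlapped, at 10.66 to 12.62 in fibroblasts and 11.48 to 12.37 in heart. Of the hearts, KO 1602 was dimmest, its upper quartile over probe sets being 5.63 while the other 5 hearts lay between 6.17 and 6.31.

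p53 binds DNA as a tetramer, at a pair of half-sites of 10 bases each. RefSeq promoter windows (build GRCm38.p6, 250 bases before and 50 bases after each start) were found for 24 of the 32 genes and searched for the p53 consensus, whose half-site reads the same on both strands. A full element was counted as 2 half-sites up to 13 bases apart, each with its core C and G in place, with at most 2 mismatches over both. It was found for 6 of the 24 genes, 25.0%, against 4.71% of the 27025 genes with a window. An exact half-site was found for 11 of the 24, 45.8%, against 9.55% of all genes. The 6 genes were Cdkn1a, Ccng1, Gadd45a, Ckap2, Sesn1 and the unmeasured Bax. The window of Cdkn1a is shown because this gene had some of the largest differences between sources. These are the 250 bases upstream of its upstream start, on the plus strand at chr17:29090729-29090978, with the element in capitals at chr17:29090928-29090947. The element begins at position -51 from that start and has 1 mismatch. The window at the second annotated start of Cdkn1a held no full element.
Cdkn1a: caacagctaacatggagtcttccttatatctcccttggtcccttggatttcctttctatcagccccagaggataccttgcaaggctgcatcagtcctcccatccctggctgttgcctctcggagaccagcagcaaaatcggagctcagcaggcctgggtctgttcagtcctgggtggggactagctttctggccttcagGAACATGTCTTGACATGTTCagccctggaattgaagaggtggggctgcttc

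The elements of the other 4 measured genes are given with half-sites in capitals and the bases between them in lower case, read along the strand of the gene. Ccng1 has its element at chr11:40755462-40755481 on the minus strand, Ckap2 at chr8:22186003-22186022 on the minus strand, Gadd45a at chr6:67037438-67037463 on the minus strand and Sesn1 at chr10:41887253-41887275 on the plus strand. A match describes the letters only, and no binding was measured.
Ccng1: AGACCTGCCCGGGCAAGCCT
Ckap2: AGACATGTCCTGACTTGTCA
Gadd45a: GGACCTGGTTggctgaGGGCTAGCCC
Sesn1: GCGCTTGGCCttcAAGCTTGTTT

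Most of these genes differed between sources of RNA, and none passed the test between genotypes. Of the 30, 21 had their highest WT mean in fibroblasts, 5 in lungs and 4 in heart. Over the 11846 genes that passed the filter on low values, the shares were 38.3% for fibroblasts, 33.7% for lungs and 28.1% for heart. The lowest WT mean lay in heart for 19 of the 30, against 39.7% of all genes. The mean over the 30 genes was 8.08 and 8.08 in KO fibroblasts and 8.09 and 8.34 in WT fibroblasts. It was 7.21, 7.22 and 7.07 in KO lungs and 7.23, 7.28 and 7.26 in WT lungs, and 6.24, 6.68 and 6.60 in KO heart and 6.79, 6.70 and 6.85 in WT heart. The fibroblast values lay above all organ values, and the lung values above all heart values.

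**Figure D1:**
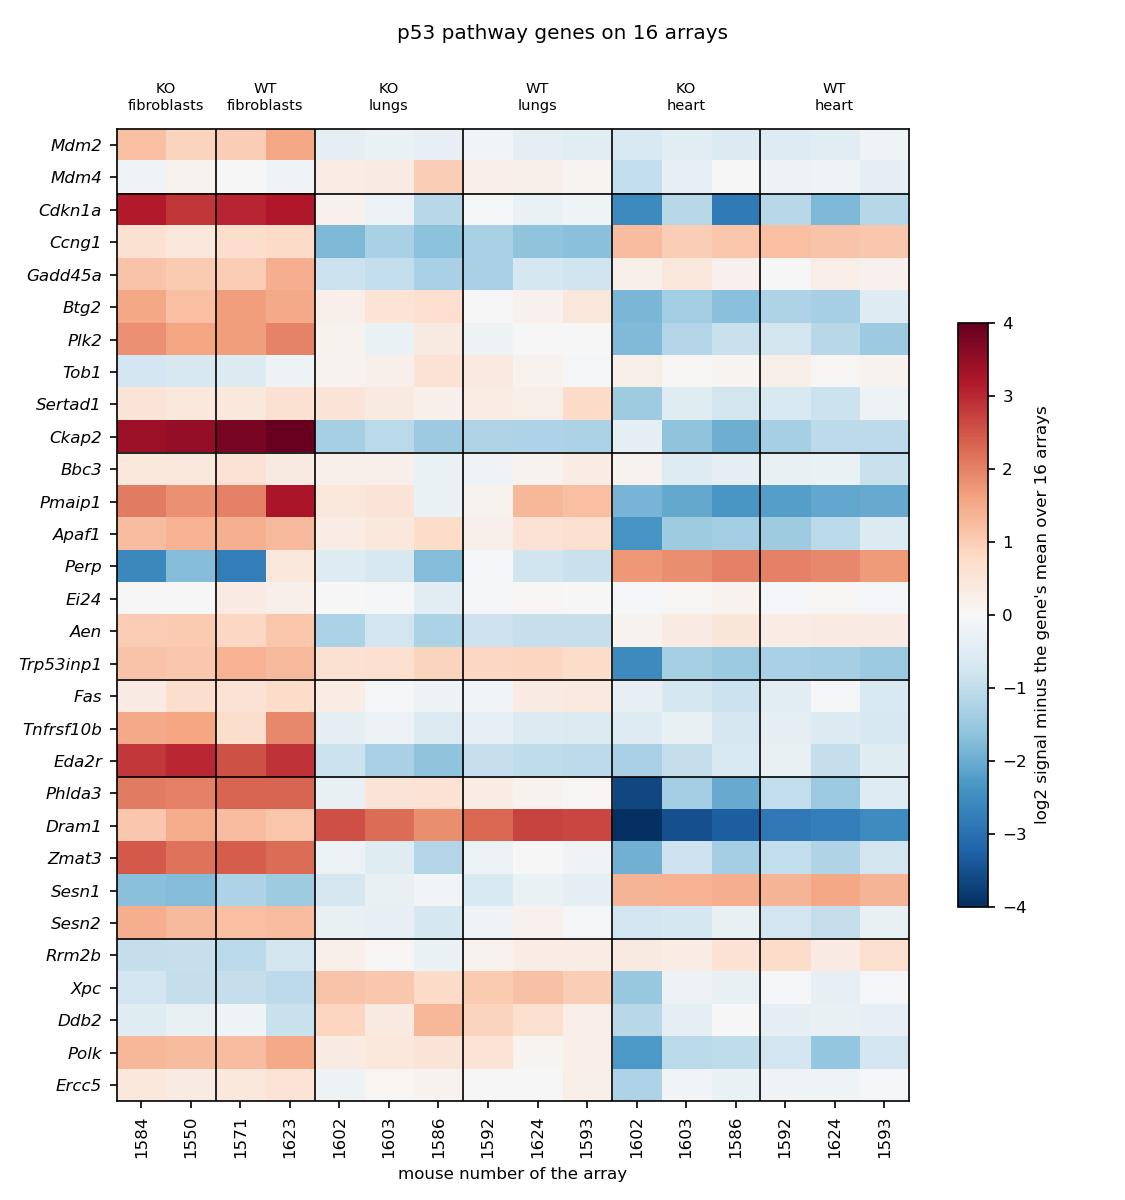
Log2 signal of each of the 30 measured genes (rows, grouped by role) on each of the 16 arrays (columns, by group and mouse number), as the difference from that gene's mean over the 16 arrays. Cdkn1a, Ckap2, Eda2r and Zmat3 are high in all 4 fibroblast columns, Dram1 is high in lungs and low in heart, and Ccng1, Perp and Sesn1 are high in heart.

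Between WT fibroblasts and WT lungs, 22 of the 30 genes differed at an adjusted p under 0.05 (limma, Benjamini-Hochberg over all probe sets kept), beside 60.1% of all probe sets. In fibroblasts 16 were higher, beside 31.7% of all probe sets, and 6 lower, beside 28.4%. The median difference was 0.98, against 0.05 over all probe sets. Between WT fibroblasts and WT heart, 27 of 30 differed, beside 63.8% of all probe sets. Fewer differed whichever 1 of these samples was left out. In fibroblasts 21 were higher, beside 36.2%, and 6 lower, beside 27.7%, with a median of 1.37 against 0.16 over all probe sets. Between WT lungs and WT heart 21 of the 27 genes kept differed, beside 60.2%, and 18 to 20 did with 1 of these samples left out. In lungs 16 were higher, beside 34.8%, and 5 lower, beside 25.4%, with a median of 0.66 against 0.18. Ckap2, Eda2r and Tnfrsf10b passed the filter only through fibroblasts, so their place among the higher genes there was set by the filter. Pmaip1 was below the filter in heart, so its place above heart, in fibroblasts and in lungs, was set by the filter too. The fibroblasts differ from the organs in cell type, preparation and mice, which cannot be told apart. In bulk RNA, fewer cells of a type and less RNA per cell cannot be told apart either.

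Cdkn1a encodes p21, the inhibitor of cyclin-dependent kinases through which p53 halts the cell cycle. Its signal was 10.85 and 10.55 in KO fibroblasts and 10.73 and 10.89 in WT fibroblasts, 7.85, 7.45 and 6.57 in KO lungs and 7.66, 7.42 and 7.52 in WT lungs, and 5.13, 6.57 and 4.85 in KO heart and 6.57, 5.91 and 6.56 in WT heart. The fibroblast values did not overlap those of either organ. WT fibroblasts were 9.68-fold above WT lungs, a log2 difference of 3.27 (SE 0.44, adjusted p = 2.24e-05), and 22-fold above WT heart, a log2 difference of 4.46 (SE 0.44, adjusted p = 8.17e-07). WT lungs were above WT heart by 1.19 (SE 0.39, adjusted p = 0.0175). That last call was lost without the WT heart of mouse 1624 (0.97, adjusted p = 0.0758) and with the mean of both Cdkn1a probe sets (1.12, adjusted p = 0.0547).

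Mdm2, the ligase that p53 itself induces, gave 9.66 and 9.37 in KO fibroblasts and 9.45 and 10.03 in WT fibroblasts, 8.07, 8.22 and 8.15 in KO lungs and 8.36, 8.11 and 8.06 in WT lungs, and 7.86, 8.02 and 7.93 in KO heart and 7.95, 8.02 and 8.29 in WT heart. It was higher in WT fibroblasts than in WT lungs by 1.56 (SE 0.17, adjusted p = 4.42e-06) and than in WT heart by 1.66 (SE 0.17, adjusted p = 1.8e-06), while WT lungs minus WT heart was 0.09 (SE 0.16, adjusted p = 0.635). Mdm4, which blocks the activating region of p53, passed the test with its main probe set in none of the 3 WT comparisons. The differences were -0.26 (SE 0.25), 0.18 (SE 0.25) and 0.45 (SE 0.23). A dimmer Mdm4 probe set was higher in WT fibroblasts than in WT lungs by 1.39 (adjusted p = 1.49e-05). From WT heart it differed by 1.37 (adjusted p = 1.23e-05), so these calls depended on the probe set.

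Of the 8 cell cycle genes, 6 were higher and 1 lower in WT fibroblasts than in WT lungs, and 6 were higher and 2 lower than in WT heart. Of all probe sets, 31.7% were higher and 28.4% lower than in lungs, and 36.2% higher and 27.7% lower than in heart. Ckap2, a spindle protein of dividing cells, had the largest difference of the 30 from lungs. Its signal was 8.76 and 9.11 in WT fibroblasts, against 3.75, 3.72 and 3.68 in WT lungs and 3.64, 3.92 and 3.91 in WT heart, where values lay near the filter level of 3.79. The difference from lungs was 5.22 (SE 0.32, adjusted p = 1.17e-08) and that from heart 5.11 (SE 0.32, adjusted p = 9.97e-09). Ckap2 passed the filter only through fibroblasts, so the direction of both was set by the filter. Gadd45a, a stress protein that slows the cell cycle, was higher in WT fibroblasts than in WT lungs by 2.16 (SE 0.20, adjusted p = 6.77e-07) and than in WT heart by 1.08 (SE 0.20, adjusted p = 0.000318). Plk2, a polo-like kinase, was higher by 1.91 (SE 0.26, adjusted p = 2.96e-05) and 2.93 (SE 0.26, adjusted p = 3.31e-07), and Btg2, an antiproliferative gene, by 1.38 (SE 0.24, adjusted p = 0.000223) and 2.62 (SE 0.24, adjusted p = 4.09e-07). A second Btg2 probe set gave 0.80 (adjusted p = 0.0622) from lungs and 2.53 (adjusted p = 2.38e-05) from heart. Sertad1, a regulator of cyclin-dependent kinase 4, differed from heart by 1.08 (SE 0.26, adjusted p = 0.00226) and from lungs by 0.08 (SE 0.26, adjusted p = 0.815).

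Ccng1 and Tob1 did not follow this order. Ccng1, cyclin G1, was 11.74 and 11.82 in WT fibroblasts, 9.76, 9.44 and 9.37 in WT lungs and 12.25, 12.19 and 12.11 in WT heart. It was highest in heart, and WT lungs were below WT heart, at -2.65 (SE 0.14, adjusted p = 2.59e-09). Tob1, an antiproliferative protein related to Btg2, was lower in WT fibroblasts than in WT lungs, at -0.54 (SE 0.17, adjusted p = 0.0119), and than in WT heart, at -0.53 (SE 0.17, adjusted p = 0.0122).

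Of the 7 measured genes of mitochondrial and caspase-driven death, 3 were higher in WT fibroblasts than in WT lungs and none was lower. From WT heart, 5 were higher and 1 was lower in WT fibroblasts. The shares of all probe sets were 31.7% higher and 28.4% lower against lungs, and 36.2% higher and 27.7% lower against heart. Pmaip1, which encodes the BH3-only protein Noxa, was 7.20 and 8.45 in WT fibroblasts, 5.33, 6.53 and 6.41 in WT lungs and 3, 3.11 and 3.19 in WT heart. The heart values lay below the filter level, so that a higher signal in the other sources was set by the filter. WT fibroblasts were above WT heart by 4.72 (SE 0.38, adjusted p = 1.11e-07), and WT lungs were above WT heart by 2.99 (SE 0.34, adjusted p = 3.99e-06). Bbc3, which encodes the BH3-only protein Puma, differed less, by 0.37 (SE 0.24, adjusted p = 0.19) from lungs and 0.96 (SE 0.24, adjusted p = 0.00311) from heart. Apaf1, the scaffold of the apoptosome, was above heart in WT fibroblasts by 2.38 (SE 0.29, adjusted p = 8.47e-06) and in WT lungs by 1.5 (SE 0.26, adjusted p = 0.000233).

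Trp53inp1, a nuclear cofactor of p53, was 9.37, 9.39 and 9.27 in WT lungs and 7.24, 7.22 and 7.04 in WT heart, a difference of 2.18 (SE 0.23, adjusted p = 2.36e-06). Aen, an apoptosis-enhancing nuclease, was higher in WT fibroblasts than in WT lungs by 1.85 (SE 0.16, adjusted p = 3.29e-07) and than in WT heart by 0.63 (SE 0.16, adjusted p = 0.00323). Ei24, a membrane protein induced in p53-dependent death, passed the test in none of the 3 WT comparisons. Perp, a membrane protein that p53 induces and that also builds desmosomes, ran the other way. It was 5.35 and 8.57 in WT fibroblasts, 8.08, 7.31 and 7.21 in WT lungs and 10.12, 10.02 and 9.83 in WT heart. The 3 hearts were above every other WT sample, and the fibroblast pair lay 3.22 apart. Perp was lower in WT lungs than in WT heart, at -2.45 (SE 0.59, adjusted p = 0.00272).

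Of the 3 death receptor genes, Eda2r, the receptor of ectodysplasin A2, was 6.97 and 7.31 in WT fibroblasts, against 3.51, 3.41 and 3.38 in WT lungs and 4.11, 3.48 and 3.95 in WT heart. The difference was 3.71 (SE 0.24, adjusted p = 2.26e-08) from lungs and 3.29 (SE 0.24, adjusted p = 5.18e-08) from heart. Tnfrsf10b, the mouse TRAIL receptor, was higher in WT fibroblasts by 1.79 (SE 0.26, adjusted p = 4.55e-05) and 1.80 (SE 0.26, adjusted p = 3.25e-05). Eda2r and Tnfrsf10b passed the filter only through fibroblasts, so a higher level there was set by the filter. Fas, the receptor of Fas ligand, was higher in WT fibroblasts than in WT heart by 1.03 (SE 0.22, adjusted p = 0.00108), with 0.46 (SE 0.22, adjusted p = 0.0901) against lungs.

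All 5 genes of signalling and autophagy differed in each of the 3 WT comparisons. Of all probe sets, 60.1% differed between fibroblasts and lungs, 63.8% between fibroblasts and heart and 60.2% between lungs and heart. Phlda3, which restrains the kinase Akt, was 10 and 10 in WT fibroblasts, 7.97, 7.80 and 7.70 in WT lungs and 6.69, 6.18 and 7.15 in WT heart. Zmat3, an RNA-binding zinc finger protein, was 9.20 and 9.02 in WT fibroblasts, 6.55, 6.81 and 6.64 in WT lungs and 5.78, 5.59 and 6.03 in WT heart. Both took the same order in WT samples, with no overlap between sources there. With KO samples included, Zmat3 overlapped between lungs, down to 5.60, and heart, up to 6.03. Fibroblasts were above heart by 3.32 (SE 0.49, adjusted p = 4.18e-05) for Phlda3 and by 3.31 (SE 0.29, adjusted p = 3.2e-07) for Zmat3, and above lungs by 2.17 (SE 0.49, adjusted p = 0.00163) and 2.44 (SE 0.29, adjusted p = 8.98e-06).

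Dram1, a lysosomal membrane protein that promotes autophagy, was 9.41 and 9.28 in WT fibroblasts, 10.47, 10.86 and 10.83 in WT lungs and 5.32, 5.44 and 5.64 in WT heart. It was highest in lungs, 38.2-fold above heart, a log2 difference of 5.25 (SE 0.25, adjusted p = 7e-10), the largest of the 27 genes compared. The 2 sestrins, which damp the kinase mTORC1, took opposite orders. Sesn1 was 7.07 and 6.87 in WT fibroblasts, 7.71, 8.05 and 7.91 in WT lungs and 9.65, 9.84 and 9.65 in WT heart, lowest in fibroblasts and highest in heart, with -2.74 (SE 0.16, adjusted p = 5.13e-09) between the outer pair. Sesn2 was highest in fibroblasts, 1.24 (SE 0.20, adjusted p = 0.000138) above lungs and 1.89 (SE 0.20, adjusted p = 2e-06) above heart.

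Of the 5 genes for DNA repair and nucleotide supply, 3 were lower and 1 was higher in WT fibroblasts than in WT lungs. The shares of all probe sets were 28.4% lower and 31.7% higher. Xpc, the damage sensor of nucleotide excision repair, was lower, at -2.05 (SE 0.29, adjusted p = 3.95e-05). Ddb2, which recognises ultraviolet damage, was lower, at -1.12 (SE 0.33, adjusted p = 0.00942), and Rrm2b, the p53-inducible subunit of ribonucleotide reductase, at -1.13 (SE 0.17, adjusted p = 8.3e-05). A second probe set gave -0.63 (adjusted p = 0.0685) for Ddb2 and 0.20 (adjusted p = 0.583) for Rrm2b. The calls of Ddb2 and Rrm2b against lungs thus depended on the probe set. Polk, a translesion DNA polymerase, was the one that was higher, by 1.08 (SE 0.33, adjusted p = 0.0115). Ercc5, the repair endonuclease XPG, was higher than in WT heart by 0.60 (SE 0.25, adjusted p = 0.0476), with 0.41 (SE 0.25, adjusted p = 0.171) against lungs.

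The lungs also gave signal for heart muscle markers. The mean of 6 of 7 heart muscle markers was 4.98, 9.10 and 8.32 in KO lungs and 8.83, 7.28 and 7.19 in WT lungs, against 13.40, 13.36 and 13.36 in KO heart and 13.35, 13.35 and 13.37 in WT heart. The mean of 5 of 7 lung markers was 3.65, 4.73 and 4.81 in KO heart and 3.7, 3.82 and 3.72 in WT heart, highest in KO hearts 1603 and 1586. The part of these markers in the differences between lungs and heart was not tested.

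**Figure D2:**
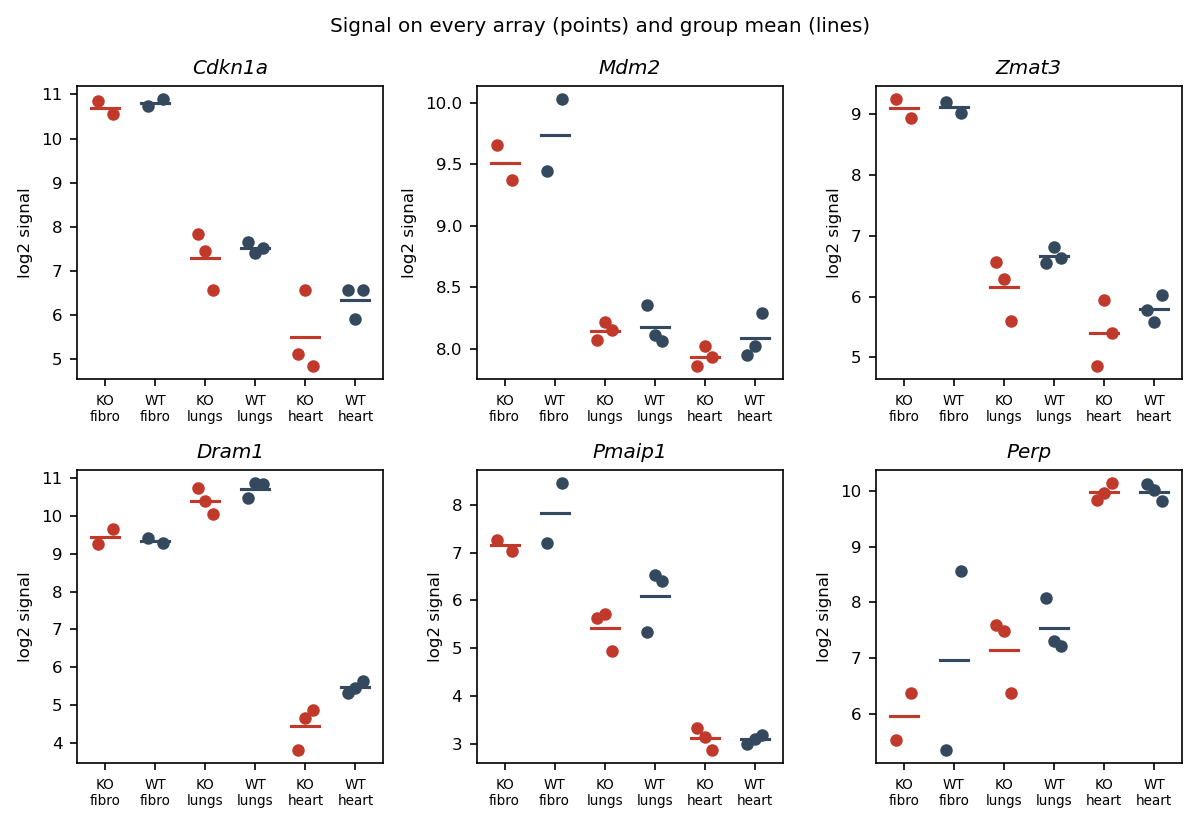
Log2 signal of 6 genes on every array (points) with the mean of each group (lines), KO in red and WT in dark blue, with a separate vertical axis per gene. Cdkn1a, Mdm2 and Zmat3 are highest in fibroblasts, Dram1 in lungs and Perp in heart.

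The same comparisons were made among KO samples, which came from other mice. Between KO fibroblasts and KO lungs, 22 of 30 genes differed, beside 65.2% of all probe sets, and all 22 were among the 22 of the WT comparison, with the same sign. Between KO fibroblasts and KO heart, 26 of 30 differed, beside 67.2%. All 26 were among the 27 of the WT comparison, with the same sign. Between KO lungs and KO heart, 22 of 27 differed, beside 68.4%. Of these 22, 19 were shared with the 21 of the WT comparison, again with the same sign. The shared counts hold Ckap2, Eda2r and Tnfrsf10b for fibroblasts and Pmaip1 for comparisons with heart, whose direction was set by the filter.

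**Figure D3:**
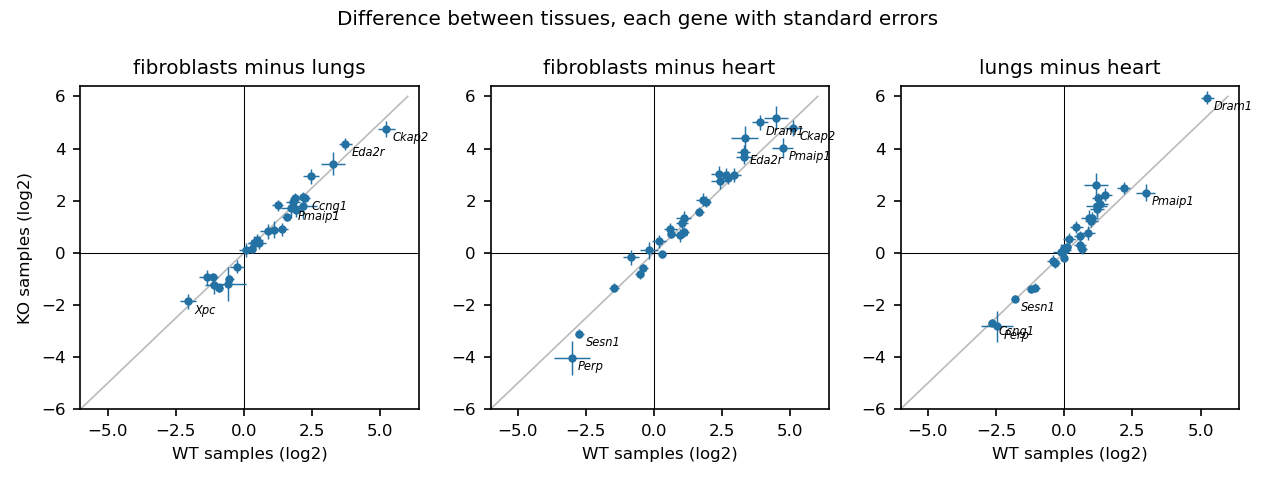
Difference between 2 sources in WT samples (horizontal axis, log2) and in KO samples (vertical axis, log2) for each of the 30 genes, with standard errors, with the line of equal differences in grey. Ckap2 and Eda2r lie at the upper right for fibroblasts minus lungs, and Dram1 at the upper right and Perp and Ccng1 at the lower left for lungs minus heart.

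No gene of the 30 differed between KO and WT in any source or over the 3 tissues together at an adjusted p under 0.05 (limma). The shares of all probe sets that did were 0.0301% in lungs, 0.127% in heart, 0.0549% in fibroblasts and 0.0717% over the 3 tissues. Before adjustment, p was under 0.05 for 1 of 27 genes kept in lungs, 4 of 26 in heart, none of 30 in fibroblasts and 1 of 30 over the 3 tissues. Over all probe sets those shares were 6.96%, 17.0%, 3.33% and 8.16%. In lungs 18 of 27 genes had a KO mean below the WT mean, and 60% of all probe sets did. In heart it was 22 of 26, beside 72.2%. In fibroblasts it was 22 of 30, beside 44.7%, and over the 3 tissues 26 of 30, beside 63.7%. Without WT fibroblast sample 1623 the counts were 16 of 30 in fibroblasts, with a median difference of -0.04, and 23 of 30 over the 3 tissues. The median differences were small, -0.07 in lungs, -0.17 in heart, -0.11 in fibroblasts and -0.14 over the 3 tissues, against -0.06, -0.16, 0.02 and -0.05 over all probe sets.

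**Figure D4:**
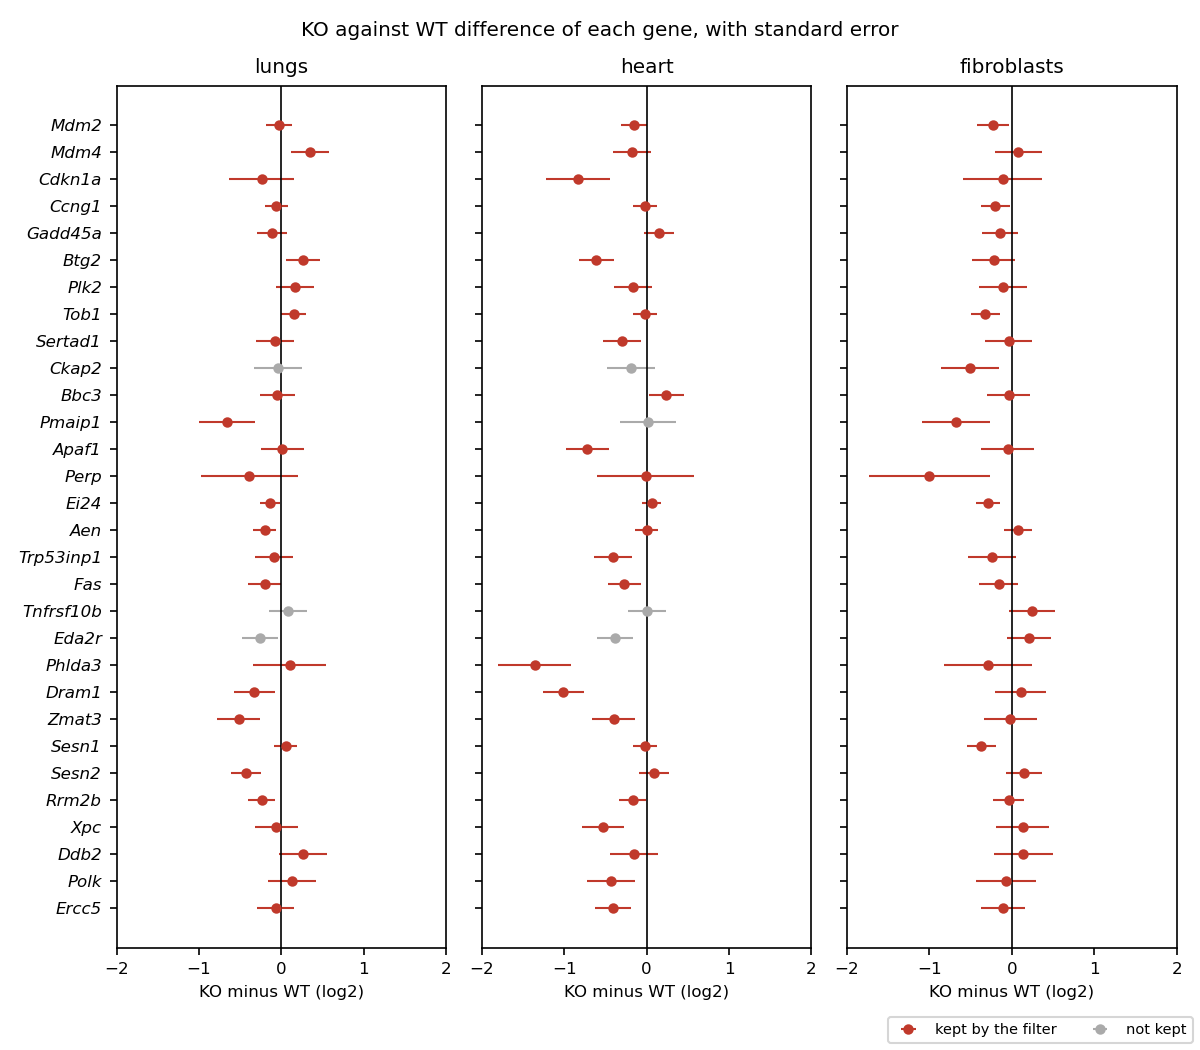
KO minus WT difference (log2, horizontal axis) of each of the 30 genes in lungs, heart and fibroblasts, with the standard error of the fit. Grey marks genes below the filter in that source, and the points farthest left are Phlda3, Dram1 and Cdkn1a in heart and Perp in fibroblasts.

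In lungs, the KO against WT difference of Mdm2 was -0.03 (SE 0.16, adjusted p = 0.966), and its KO and WT values, given above, overlapped. That of Cdkn1a was -0.24 (SE 0.39, adjusted p = 0.884), and 1 KO sample, that of mouse 1586, lay below all the others. Without this sample the Cdkn1a difference was 0.12. Pmaip1 had the largest difference. It was 5.64, 5.71 and 4.94 in KO lungs and 5.33, 6.53 and 6.41 in WT lungs, a difference of -0.66 (SE 0.34, adjusted p = 0.713). Zmat3 was 6.56, 6.29 and 5.60 in KO lungs and 6.55, 6.81 and 6.64 in WT lungs, a difference of -0.52 (SE 0.26, adjusted p = 0.713). In both, KO 1586 was the lowest sample and the genotypes overlapped.

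Sesn2 was 5.51, 5.46 and 5.09 in KO lungs and 5.65, 5.96 and 5.74 in WT lungs. All 3 KO values lay below the WT values, a difference of -0.43 (SE 0.18, adjusted p = 0.711). Perp was 7.59, 7.48 and 6.38 in KO lungs and 8.08, 7.31 and 7.21 in WT lungs, with a difference of -0.39 (SE 0.59, adjusted p = 0.878). Dram1 was 10.74, 10.39 and 10.04 in KO lungs and 10.47, 10.86 and 10.83 in WT lungs, with a difference of -0.33 (SE 0.25, adjusted p = 0.752). Mdm4 was 6.95, 6.98 and 7.65 in KO lungs and 6.91, 6.87 and 6.76 in WT lungs. Its KO values were all above the WT values, a difference of 0.35 (SE 0.23, adjusted p = 0.735). KO lung 1586 was the lowest of its group for 17 of the 30 genes and the highest for 11. Its median difference over the 30 genes from the other KO lungs was -0.25, beside -0.07 over all probe sets above the median. The mean of 7 of 10 adipocyte markers was 3.96, 8.55 and 9.02 in KO lungs and 7.23, 4.28 and 4.18 in WT lungs, highest in the same sample. Its part in these values was not tested. Without KO lung 1586 the difference was -0.41 for Pmaip1, -0.25 for Zmat3, -0.15 for Dram1 and 0.12 for Mdm4, and that of Perp was 0 to 2 decimals. Without WT lung 1592 it was -1.03 for Pmaip1 and -0.11 for Perp.

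The 2 largest differences between genotypes lay in heart, and neither passed the test. Phlda3 was 4.02, 6.27 and 5.64 in KO heart and 6.69, 6.18 and 7.15 in WT heart, a difference of -1.36 (SE 0.44, adjusted p = 0.168). Dram1 was 3.81, 4.66 and 4.88 in KO heart and 5.32, 5.44 and 5.64 in WT heart, a difference of -1.01 (SE 0.25, adjusted p = 0.103). For Dram1 the KO values were all below the WT values, whereas for Phlda3 the KO heart 1603 lay above the WT heart 1624. The difference of Cdkn1a was -0.83 (SE 0.39, adjusted p = 0.299), where KO hearts 1602 and 1586 were low and KO heart 1603 was level with the 2 higher WT hearts. That of Mdm2 was -0.15 (SE 0.16, adjusted p = 0.647).

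Apaf1 was 3.76, 4.71 and 4.73 in KO heart and 4.70, 5.04 and 5.60 in WT heart, a difference of -0.72 (SE 0.26, adjusted p = 0.209). Btg2 was 7.27, 7.71 and 7.42 in KO heart and 7.87, 7.78 and 8.58 in WT heart, a difference of -0.61 (SE 0.21, adjusted p = 0.192), with no overlap between genotypes. Xpc was 4.98, 6.28 and 6.20 in KO heart and 6.46, 6.18 and 6.42 in WT heart, a difference of -0.53 (SE 0.26, adjusted p = 0.316). KO 1602 was the lowest of the KO hearts for 20 of the 30 genes, Dram1, Phlda3, Apaf1, Btg2 and Xpc among them. Its median difference over the 30 genes from the other KO hearts was -0.29, beside -0.39 over all probe sets above the median. Without KO 1602 the difference between genotypes was -0.72 for Phlda3, -0.69 for Dram1, -0.40 for Apaf1, -0.51 for Btg2 and -0.11 for Xpc. Without KO 1586 that of Cdkn1a was -0.50, and without WT 1593 that of Apaf1 was -0.47 and that of Btg2 -0.36. Without KO 1602 the median of the kept genes between genotypes was -0.05 in place of -0.17, and with quantile normalization it was -0.03. Quantile normalization also gave 12 genes higher and 15 lower in KO heart, in place of 4 and 22.

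Atrial and other marker lists were low in some of the KO hearts. The mean of 6 of 7 atrial muscle markers was 5.31, 9.77 and 5.97 in KO heart and 10.10, 9.02 and 10.42 in WT heart. KO hearts 1602 and 1586 were low in these markers and in Cdkn1a alike, while KO 1603 was within or level with the WT range for both. With this mean as a term in the fit, a choice made after seeing the data, the difference between genotypes was 0.24 for Cdkn1a, -0.20 for Phlda3, -0.72 for Dram1, -0.30 for Apaf1, -0.27 for Btg2 and 0.03 for Xpc. No gene of the 30 passed the test in that fit, and none did in the main fit. Over these 6 hearts the atrial mean ran partly with genotype, so the 2 cannot be told apart in that fit. Fibroblast markers, 8 of 8 measured, had means of 6.60, 7.38 and 6.85 in KO heart and 7.40, 7.40 and 8.01 in WT heart. Mesothelium markers, 6 of 6 measured, had means of 4.08, 6.24 and 4 in KO heart and 7.25, 5.37 and 5.62 in WT heart. Endothelial markers, 6 of 6 measured, had means of 7.39, 7.95 and 7.67 in KO heart and 8.13, 8.10 and 8.01 in WT heart. The part of these 3 lists in the gene differences was not tested. Without KO heart 1603, 3 genes were called lower in KO heart, Cdkn1a at -1.36 (adjusted p = 0.0299), Phlda3 at -1.84 (adjusted p = 0.0274) and Dram1 at -1.12 (adjusted p = 0.0439), and 1054 probe sets were called in all, in place of 28.

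**Figure D5:**
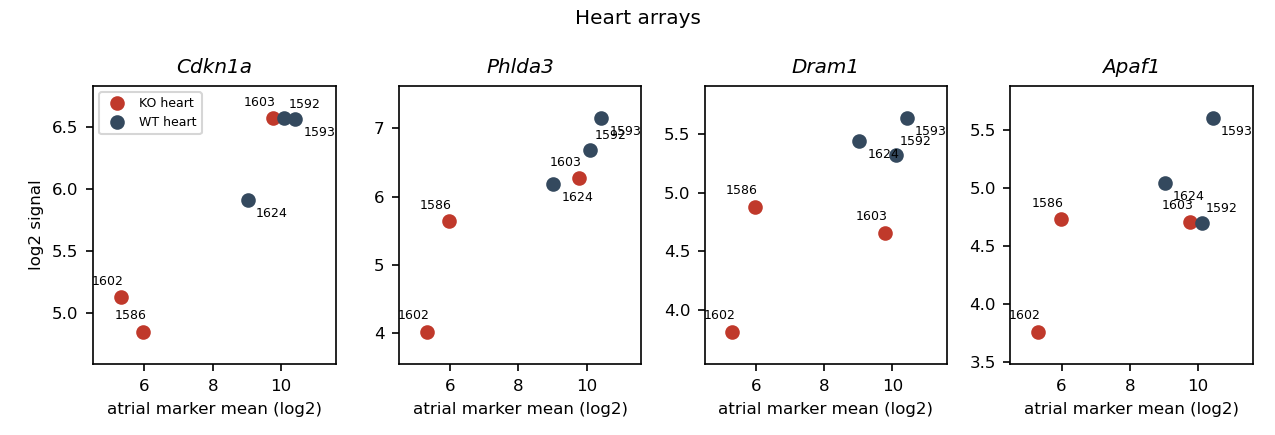
Log2 signal of 4 genes (vertical axes) against the mean of the atrial muscle markers (horizontal axis, log2) on the 6 heart arrays, KO in red and WT in dark blue, with mouse numbers. KO hearts 1602 and 1586, with atrial means of 5.31 and 5.97, are the lowest for Cdkn1a and Phlda3, and KO 1603 lies beside the WT hearts for these 2 genes but below them for Dram1.

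In fibroblasts, the KO against WT difference was -0.11 (SE 0.48) for Cdkn1a and -0.23 (SE 0.19) for Mdm2, and KO and WT values of both overlapped. The largest difference was that of Perp, at 5.53 and 6.38 in KO fibroblasts and 5.35 and 8.57 in WT fibroblasts, -1 (SE 0.73, adjusted p = 1). Pmaip1 was 7.27 and 7.03 in KO fibroblasts and 7.20 and 8.45 in WT fibroblasts, -0.68 (SE 0.41, adjusted p = 1). Both differences rested on the WT sample of mouse 1623, which was above the other 3 fibroblast samples. Without it the difference was 0.61 for Perp and -0.05 for Pmaip1. Without the other WT sample, 1571, the difference of Perp was -2.61. Each of these fits left 1 WT fibroblast array, so only the size of the difference is given. Markers of keratinocytes, the skin epithelial cells in which Perp is abundant, had a mean over 9 of 9 genes of 3.13 to 3.19 in the 4 fibroblast samples, with Krt5 between 3.79 and 4.16 and Krt14 between 2.80 and 3.09. That list was added after seeing the values, and the part of other cells in the Perp values was not tested. The mean of the 8 fibroblast markers was 10.69 and 10.66 in KO fibroblasts and 10.60 and 10.06 in WT fibroblasts, lowest in WT 1623.

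Ckap2 was 8.38 and 8.47 in KO fibroblasts and 8.76 and 9.11 in WT fibroblasts, a difference of -0.51 (SE 0.35). Sesn1 was 6.62 and 6.58 in KO fibroblasts and 7.07 and 6.87 in WT fibroblasts, a difference of -0.37 (SE 0.18). Tob1 was 8.61 and 8.72 in KO fibroblasts and 8.81 and 9.16 in WT fibroblasts, a difference of -0.32 (SE 0.18). Ei24 was 9.27 and 9.26 in KO fibroblasts and 9.61 and 9.50 in WT fibroblasts, a difference of -0.29 (SE 0.15). In each of these 4 genes KO values lay below WT values without overlap, and each had an adjusted p of 1. The 4 genes were named for the size of their difference. With so few arrays per genotype, values can separate in this way by chance. How often other probe sets did so was not counted, so the separation does not set these genes apart. Without WT sample 1623 the Tob1 difference was -0.14.

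Over the 3 tissues together the largest differences were those of Phlda3 at -0.52 (SE 0.27, adjusted p = 0.643), Perp at -0.47 (SE 0.37, adjusted p = 0.744), Pmaip1 at -0.44 (SE 0.21, adjusted p = 0.624), Dram1 at -0.41 (SE 0.16, adjusted p = 0.586), Cdkn1a at -0.39 (SE 0.24, adjusted p = 0.691) and Zmat3 at -0.31 (SE 0.16, adjusted p = 0.644). Of the values not yet given, Phlda3 was 7.35, 8.17 and 8.25 in KO lungs and 9.73 and 9.68 in KO fibroblasts, and Dram1 was 9.25 and 9.65 in KO fibroblasts. Zmat3 was 9.24 and 8.94 in KO fibroblasts and 4.86, 5.95 and 5.40 in KO heart. In KO heart, Perp was 9.84, 9.96 and 10.14 and Pmaip1 3.34, 3.14 and 2.87. For Phlda3 the difference was 0.10 (SE 0.44) in lungs and -0.29 (SE 0.53) in fibroblasts, beside -1.36 (SE 0.44) in heart. That of Mdm2 over the 3 tissues was -0.14 (SE 0.10, adjusted p = 0.717). Without WT fibroblast sample 1623 the difference over the 3 tissues was 0.07 for Perp and -0.23 for Pmaip1, and without KO heart 1602 it was -0.30 for Phlda3.

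Whether the genotype difference itself varied between sources was tested with interaction terms, and none of the 30 genes passed. The share of all probe sets that did was 0% for heart against lungs, 0.0197% for fibroblasts against lungs and 0.0203% for fibroblasts against heart. Before adjustment, p was under 0.05 for Btg2 at -0.87 (SE 0.30, adjusted p = 0.676) and Phlda3 at -1.46 (SE 0.62, adjusted p = 0.681) for heart against lungs. It was so for no gene for fibroblasts against lungs, and for Dram1 at 1.12 (SE 0.39, adjusted p = 0.54) for fibroblasts against heart. The share of all probe sets with such a p before adjustment is not given here, so these genes are not set apart by it.

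For 15 of the 30 genes other probe sets were present. Of those kept, 11 of 14 had the sign of the main probe set for KO against WT in lungs, 8 of 14 in heart and 9 of 16 in fibroblasts. For WT fibroblasts against WT lungs it was 14 of 16, for WT fibroblasts against WT heart 16 of 16, and for WT lungs against WT heart 12 of 14. The second Cdkn1a probe set gave KO against WT differences of -0.70 in lungs, -0.95 in heart and -0.20 in fibroblasts. The second Mdm2 probe set gave 0.22, 0.04 and -0.29, so the sign for Mdm2 in lungs and heart depended on the probe set.

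Other genes of the pathway were taken from 3 lists. Of 50 further p53 targets 39 were measured, of 34 upstream regulators of p53 29, and of 30 cell division genes that p53 represses through the DREAM complex 26. None passed the test between KO and WT in any source or over the 3 tissues. Among the further targets, Ephx1, an epoxide hydrolase, was 7.52, 8.16 and 7.96 in KO heart and 8.89, 8.48 and 8.81 in WT heart, a difference of -0.85 (SE 0.17, adjusted p = 0.078) without overlap. Vcan, the matrix proteoglycan versican, was 3.36, 5.07 and 4.42 in KO heart and 5.41, 5.72 and 7 in WT heart, a difference of -1.76 (SE 0.42, adjusted p = 0.101). Igfbp3, which binds insulin-like growth factors, had a difference of -1.04 (SE 0.29, adjusted p = 0.129) in heart. In lungs, the growth factor Tgfa had a difference of -0.79 (SE 0.29), Igfbp3 of -0.72 (SE 0.29) and the drug transporter Abcb1a of -0.48 (SE 0.39), each with an adjusted p of 0.711 or more. In fibroblasts, cyclin D1 (Ccnd1) had a difference of -0.91 (SE 0.25, adjusted p = 0.526), the receptor Notch1 of -0.80 (SE 0.20, adjusted p = 0.392) and the inflammatory caspase Casp1 of 0.74 (SE 0.65, adjusted p = 1).

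Among the upstream regulators, Hdac1, a histone deacetylase, was 5.63, 6.18 and 5.81 in KO heart and 6.52, 6.74 and 6.88 in WT heart, a difference of -0.84 (SE 0.16, adjusted p = 0.0675), again without overlap. Trp53bp2, a p53-binding protein, had a difference of -1.10 (SE 0.27, adjusted p = 0.103) in heart and the acetyltransferase Crebbp of -0.50 (SE 0.24, adjusted p = 0.304). In lungs the largest differences were Crebbp at -0.46 (SE 0.24, adjusted p = 0.713), the damage kinase Atm at -0.38 (SE 0.20, adjusted p = 0.713) and Hdac1 at -0.35 (SE 0.16, adjusted p = 0.711). In fibroblasts they were Mtbp, an Mdm2-binding protein, at 0.63 (SE 0.26), Ppp1r13l, an inhibitor of p53, at 0.49 (SE 0.30) and the checkpoint kinase Chek2 at 0.44 (SE 0.62). Cdkn2a, which encodes the Mdm2 inhibitor Arf, was 9.91 and 9.51 in KO fibroblasts and 9.62 and 9.24 in WT fibroblasts, and between 2.96 and 3.70 in the organs, below the filter level.

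Of the DREAM list, 25 genes passed the filter in fibroblasts, 14 in lungs and 5 in heart, so for those that passed only in fibroblasts a higher level there was set by the filter. The mean of the 26 measured genes was 6.72 and 6.72 in KO fibroblasts and 6.60 and 6.88 in WT fibroblasts. It was 3.72, 3.81 and 3.71 in KO lungs and 3.88, 3.96 and 4.02 in WT lungs, and 3.75, 3.59 and 3.60 in KO heart and 3.42, 3.54 and 3.58 in WT heart. The genotypes overlapped in fibroblasts, while KO lay below WT in lungs and above WT in heart without overlap, all near the filter level and with no test of the mean. In lungs the largest differences between KO and WT were Top2a, topoisomerase II alpha, at -0.65 (SE 0.20, adjusted p = 0.711), Ube2c, a ubiquitin-conjugating enzyme of mitosis, at -0.62 (SE 0.52, adjusted p = 0.778), and Prc1, a spindle midzone protein, at -0.54 (SE 0.23, adjusted p = 0.711). In heart 5 genes of this list passed the filter, and Ube2c had 0.63 (SE 0.52), the centromeric histone Cenpa 0.26 (SE 0.17) and the transcription factor E2f1 -0.12 (SE 0.19). In fibroblasts the phosphatase Cdc25c had 0.59 (SE 0.15, adjusted p = 0.381), the mitotic kinesin Kif23 -0.33 (SE 0.60) and the ribonucleotide reductase subunit Rrm2 -0.30 (SE 0.27).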

How the data were processed

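RNA of 16 samples was measured on Affymetrix mouse expression arrays. The authors deposited log2 signals, 1 per probe set and array. Partek 6.4 is named per the submitters' processing notes, while background correction, probe summary and normalization between arrays are steps not given in the sources used here. Array medians lay between 3.65 and 3.93. Without depths or detection calls, precision rests on how many arrays there are.

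The values were used as deposited. Probe sets were named through the array annotation, with current symbols for 28689 of 28898 with 1 gene. A further 551 had several genes and 15588 are unnamed here. All 16 arrays entered 1 model of 6 group means in limma 3.58.1 in R 4.3.3 (10 residual and 3.53 prior degrees of freedom). The model was also run on data simulated from the means and spreads of that fit. Probe sets were kept where the mean over a compared tissue exceeded 3.79, the median of all values. Two-sided p-values were adjusted by Benjamini-Hochberg over the kept probe sets, and called under 0.05. Lungs and heart with the same number came from 1 mouse; a random block for mouse (consensus correlation 0.0542) was an alternative, beside quantile normalization, other filters, only the compared tissues, a trended robust fit, the mean of a gene's probe sets and each sample left out. Own lungs and heart deviated together with correlations of 0.0404 to 0.169. Where nothing in the labels says how samples were taken, p-values measure only the spread between these samples. Genes named by rule were Mdm2 and Cdkn1a, and per comparison the 6 with the largest difference, plus 3 of each other list; in the WT comparisons other members are described by role as well, to account for every member. The genes and lists were chosen with earlier results of these data known.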

Additional observations from a re-analysis of the deposited data

How the results depend on the processing

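Leaving aside the fits with 1 array in a group, no alternative called a KO against WT difference in these genes, except without KO heart 1603. Leaving out 1 sample, the genes called ranged from 0 to 3 in heart. In fibroblasts this left 1 array in a group, so calls are not given. The median KO against WT difference ranged from -0.36 to -0.05 in heart, the highest without KO heart 1602 and the lowest without KO heart 1586. The medians between WT sources ranged from 0.94 to 1.12 for fibroblasts against lungs, 1.13 to 1.61 for fibroblasts against heart and 0.57 to 0.84 for lungs against heart. Quantile normalization gave medians of -0.03 for KO against WT heart and 0.48 for WT lungs against WT heart. It moved the median of all probe sets in heart to -0.02, in place of -0.16. The atrial marker mean, which ran partly with genotype, was added as a term after seeing the data. In that fit the KO heart median was -0.02, Cdkn1a 0.24 and Xpc 0.03.

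Signs turned for these genes. Mdm2 in KO against WT lungs was 0.04 with quantile normalization and 0.10 with the mean of its probe sets, and ranged from -0.09 to 0.06 with 1 sample left out. Leaving out 1 sample, Cdkn1a ranged from -0.52 to 0.12 in lungs and -0.26 to 0.04 in fibroblasts, Mdm2 in fibroblasts from -0.52 to 0.06, and Perp from -2.61 to 0.61 in fibroblasts and -1 to 0.07 over the 3 tissues. Mdm2 in WT lungs against WT heart was -0.07 with the mean of its probe sets. The cause was not tested.

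With the replicate block for mouse, the pairing of lungs and heart left the KO against WT medians at -0.07 in lungs and -0.17 in heart, with 0 genes called, and the 22 calls for WT fibroblasts against WT lungs stood. The block changed no call. Over all alternatives, 970 values counted as unchanged and 30 did not. A gene's difference counted so when direction and side of the threshold held, and a median when it moved by less than the replicate spread. A count of called genes needed only to stay within a set fold of the main count, so it could still differ. Signals near 3.79 lie at the dim end of the arrays, which limits Ckap2, Eda2r, Tnfrsf10b and Pmaip1 in the organs where they are dim.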
